A study of Mus musculus with 8 samples.

Results

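The genes described here are 7 markers of border-associated macrophages: Mrc1, Pf4, Cd163, Lyve1, F13a1, Ms4a7 and Cbr2. They were taken by symbol from a table of read counts for 35583 mouse genes, and each of the 7 symbols matched 1 row. The libraries came from microglia, the macrophages that live in the brain tissue itself, which had been sorted from young, genetically wild-type mice. The hypothalamus was taken 20 hours after an injection of plasma protein that carried a dye. Cells sorted as plasma-positive made up 4 libraries and cells sorted as plasma-negative another 4, and both groups came from injected mice. The labels give neither the strain, the sex, the exact age nor the surface markers used for the sort. They also do not say whether the 4 libraries of a group came from separate animals, so the p-values measure only the spread between these libraries, which may be technical.

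Border-associated macrophages sit outside the brain tissue proper, around blood vessels, in the meninges and in the choroid plexus. They sample fluid and protein from the blood side of these borders through scavenger receptors. Mrc1, Cd163 and Lyve1 encode receptors, for mannose-bearing glycoproteins, for haemoglobin bound to haptoglobin and for hyaluronan. Pf4 encodes a chemokine that platelets also store, and F13a1 a subunit of a clotting transglutaminase. Ms4a7 encodes a membrane protein of the MS4A family and Cbr2 a carbonyl reductase. Because both cell types are macrophages, the markers serve to tell border macrophages from microglia after a sort.

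Few reads of the border macrophage markers were found in these libraries. Together they held 581 of 115689588 counts, or 5.02 counts per 1000000 (CPM). Of these 581 counts, 80.9% fell on Mrc1. Cd163, Lyve1 and F13a1 had 0 counts in all 8 libraries. Of the 56 values (7 genes in 8 libraries), 44 were 0 and the other 12 were above 3 counts. The only marker with enough counts to be tested, Mrc1, was not called different between plasma-positive and plasma-negative microglia.

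Promoter sequence is shown for 2 of the receptor genes, since they are the extremes of the group: Mrc1 was counted in 6 libraries and Cd163 in none. The windows run from 250 to 26 bases before the RefSeq start (build GRCm38.p6, plus strand for both), chr2:14229164-14229388 for Mrc1 and chr6:124304401-124304625 for Cd163. Capitals mark matches on either strand to GAGGAA, the core bound by the macrophage factor PU.1 (TTCCTC on the other strand).
Mrc1: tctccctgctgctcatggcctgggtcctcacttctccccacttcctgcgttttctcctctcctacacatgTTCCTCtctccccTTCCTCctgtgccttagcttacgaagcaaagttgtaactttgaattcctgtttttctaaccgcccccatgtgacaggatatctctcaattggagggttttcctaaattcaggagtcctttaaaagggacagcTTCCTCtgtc
Cd163: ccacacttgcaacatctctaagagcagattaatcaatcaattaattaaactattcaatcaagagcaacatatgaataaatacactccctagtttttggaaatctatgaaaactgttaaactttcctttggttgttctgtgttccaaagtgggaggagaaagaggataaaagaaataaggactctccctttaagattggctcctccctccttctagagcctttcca
The Mrc1 window held 3 matches and the Cd163 window 0. RefSeq windows were listed for 6 of the 7 markers (Lyve1 was not listed), and 3 of the 6 held GAGGAA, namely Mrc1, F13a1 and Cbr2. The last 68 bases of the Cbr2 window, with its 1 match, lie inside the gene as the deposited table places it, so that match is not upstream of that start. Of all 32851 windows of the same length, 20.8% held it. TGCTGA, part of the site bound by MAF factors and also searched on both strands, was in 0 of the 6 windows and in 14.7% of all windows. No window held both motifs, so no matches of the 2 overlapped. These matches describe letters only.

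Depth and purity were checked first. Total counts ranged from 2963094 in plasma-negative replicate 4 to 21422738 in plasma-negative replicate 1, so 3 counts, the upper limit that a count of 0 allows, stood for 0.140 to 1.01 CPM in a single library. Such limits cover counting error only, because the amplified reads carry no molecular identifiers. All 13 microglial markers were detected and tested, with a summed level of 77130 to 91340 CPM in plasma-negative and 84976 to 91455 CPM in plasma-positive libraries. Csf1r, the receptor that keeps microglia alive, and Olfml3 were called higher in plasma-positive microglia (log2 fold change 0.28 and 0.37, edgeR's quasi-likelihood test, adjusted p = 0.00489 and 0.00647, n = 4 per group). Over all genes, 187 of 13277 tested (1.41%) were called, 112 of them higher. Deposited gene counts made up 68.9% to 74.6% of the read total behind the RPKM values in plasma-negative and 81.4% to 84.2% in plasma-positive libraries, and the part of this gap in the results below was not tested.

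Mrc1 encodes the mannose receptor (CD206), the marker most used for border macrophages. Its gene (ENSMUSG00000026712) lies on chromosome 2 from 14229392 to 14332057 on the plus strand of GRCm38, and its exons span 6371 bases with no overlap of another gene. In plasma-negative replicates 1 to 4 there were 43, 0, 0 and 7 counts of Mrc1. In plasma-positive replicates 1 to 4 there were 16, 239, 28 and 137. Every plasma-positive library thus held some Mrc1 reads, while 2 of the 4 plasma-negative libraries held none.

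Scaled to library size with TMM factors, Mrc1 stood at 1.90, 0, 0 and 2.35 CPM in plasma-negative replicates 1 to 4. The plasma-positive replicates had 1.76, 12.1, 1.42 and 15.3 CPM. Plasma-positive replicates 2 and 4 were far above the rest, and plasma-positive replicates 1 and 3 lay between the values of the plasma-negative libraries, so the groups overlapped. Means were 1.06 ± 1.24 CPM in plasma-negative and 7.64 ± 7.11 CPM in plasma-positive microglia (SD, n = 4). The log2 fold change was 2.93 with an SE of 1.51 (edgeR's quasi-likelihood test, unadjusted p = 0.0761, adjusted p = 0.429), and DESeq2 gave an adjusted p of 0.246. Mrc1 passed the filter on low counts through the plasma-positive libraries, where it was high. In a fit without that filter its log2 fold change was also 2.93 (SE 1.46, edgeR, adjusted p = 0.351). Of all tested genes, 5.12% had a larger SE than Mrc1. A fold change at least as large as that of Mrc1 in either direction was seen in 152 tested genes, of which 22 were called.

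**Figure D1:**
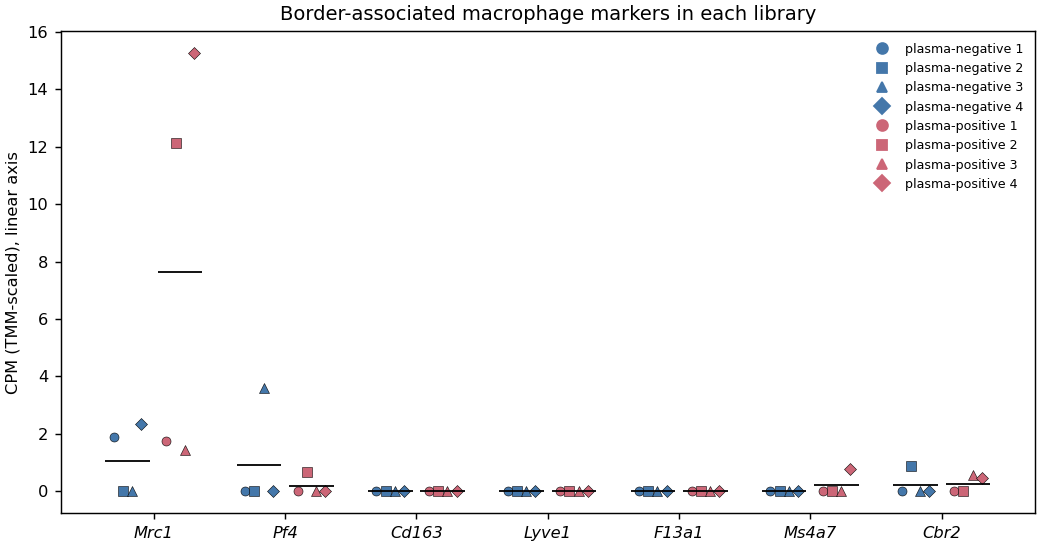
CPM (TMM-scaled, linear axis) of the 7 border macrophage markers in each library, with 1 point per library, colour for the group, shape for the replicate and a black line at the group mean. Mrc1 reached 12.1 and 15.3 CPM in plasma-positive replicates 2 and 4, and no other marker passed 3.60 CPM in any library.

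The other receptors of the group were not seen. Cd163 (chromosome 6, 124304656 to 124330527) and Lyve1 (chromosome 7, 110850607 to 110863239) had 0 counts in each library. Over all libraries together, 0 of 115689588 counts allows a level of up to 0.0259 CPM for each of them. Within the groups the same limit was 0.0536 CPM for the 4 plasma-negative and 0.0502 CPM for the 4 plasma-positive libraries. A gene at 0 throughout was common in the table, where this held for 15739 genes (44.2%). A difference between the groups in Cd163 or Lyve1 was therefore not detectable at this depth.

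Neither of the 2 secreted markers could be called. Pf4 (chromosome 5, 90772435 to 90773383) had 0, 0, 62 and 0 counts in plasma-negative replicates 1 to 4. It had 0, 13, 0 and 0 counts in plasma-positive replicates 1 to 4. Its reads thus came from 1 library in each group, at 3.60 CPM in plasma-negative replicate 3 and 0.659 CPM in plasma-positive replicate 2. Pf4 did not pass the filter on low counts. In a fit without that filter its log2 fold change was -2.37 (SE 2.47, edgeR, adjusted p = 0.657), where 185 of 19844 genes (0.932%) were called. F13a1 (chromosome 13, 36867178 to 37050244) had 0 counts in all libraries, with the same limits as Cd163 and Lyve1.

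Platelets also carry Pf4, so their markers were read beside it. Ppbp, Gp5, Gp6 and Tubb1 had 0 counts in all 8 libraries. Itga2b, the platelet integrin chain, had 10 and 34 counts in plasma-negative replicates 1 and 2 and 0 in the other 6 libraries, with or without Pf4 reads. Other platelet genes differed in the libraries that held them. Gp1ba and Treml1 had 0 counts in both libraries with Pf4 reads and up to 68 and 13 counts in other libraries. Itgb3, the partner chain of Itga2b, was counted in all 8 libraries, at 31.1 to 67.0 CPM in plasma-negative and 39.6 to 53.2 CPM in plasma-positive libraries. The receptor Clec1b was counted in 7 libraries, with 32 and 21 counts in the pair that held Pf4 and its highest values, 111 and 72 counts, in plasma-negative and plasma-positive replicates 1, where Pf4 was at 0. Gp1bb, a chain of the von Willebrand factor receptor, had 0 counts in plasma-negative replicate 3 and 112 in plasma-positive replicate 2, its highest value. The part of platelet RNA in the Pf4 values was not tested. The summed level of the 12 platelet markers was 93.7 to 120 CPM in plasma-negative and 127 to 146 CPM in plasma-positive libraries, with Gp9 the highest. None of the 3 tested was called (edgeR, adjusted p = 0.138 for Gp9).

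Cbr2 and Ms4a7 were at the edge of detection. Cbr2 (chromosome 11, 120729489 to 120732114) had 0, 14, 0 and 0 counts in plasma-negative replicates 1 to 4 and 0, 0, 11 and 4 in plasma-positive replicates 1 to 4. That is at most 0.879 CPM, and the groups overlapped. Without the filter on low counts its log2 fold change was 0.14 (SE 2.38, edgeR, adjusted p = 0.987). Ms4a7 (chromosome 19, 11321039 to 11336146) was counted in plasma-positive replicate 4 alone, with 7 counts or 0.780 CPM, and had 0 counts in the other 7 libraries. With reads in a single library, no fold change is given for it.

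Apart from Mrc1, each marker was counted in 3 libraries at most, and a common rise and fall across libraries could not be measured. Correlations between markers were limited to pairs in which both had a mean of at least 10 counts per library, and Mrc1 was the only marker that reached it, so none of the 21 pairs could be correlated. Plasma-negative replicates 1 and 4 and plasma-positive replicate 1 held Mrc1 reads and no other marker. Plasma-negative replicate 2 held Cbr2 alone, and plasma-negative replicate 3 held Pf4 alone. Mrc1 was joined by Pf4 in plasma-positive replicate 2, by Cbr2 in plasma-positive replicate 3, and by Cbr2 and Ms4a7 in plasma-positive replicate 4. No library held more than 3 of the 7 markers. The library with the most Pf4 and the library with the most Cbr2 both had 0 counts of Mrc1.

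The summed level of the 7 markers was 1.90, 0.879, 3.60 and 2.35 CPM in plasma-negative replicates 1 to 4. In plasma-positive replicates 1 to 4 it was 1.76, 12.8, 1.97 and 16.5 CPM. Plasma-positive replicates 2 and 4 were again the high ones, and the others overlapped with the plasma-negative group. The means were 2.18 ± 1.13 and 8.25 ± 7.53 CPM (SD, n = 4), a log2 ratio of 1.92, for which no test is given because the markers were chosen as a list. Without Mrc1 the log2 ratio was -0.88, with the 3.60 CPM of Pf4 in plasma-negative replicate 3 the largest remaining value, and without Pf4 it was 2.66. With RPKM in place of CPM it was 0.20, the short Pf4 exons (721 bases) then counting for more than the long Mrc1 exons.

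Levels between genes were compared per length, as RPKM. Mrc1 ranged from 0 to 0.277 RPKM in plasma-negative and from 0.179 to 1.86 RPKM in plasma-positive libraries. Csf1r, which border macrophages and microglia both express, stood at 1319 to 1488 RPKM in plasma-negative and 1758 to 1887 RPKM in plasma-positive libraries. Mrc1 was therefore at most 0.106% of the Csf1r level, in plasma-positive replicate 4, and 0.00950% in plasma-positive replicate 3. The 7 markers summed to between 0.000846% and 0.0184% of the summed RPKM of the 13 microglial markers. In bulk libraries fewer cells of a type and less RNA per cell cannot be told apart.

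**Figure D2:**
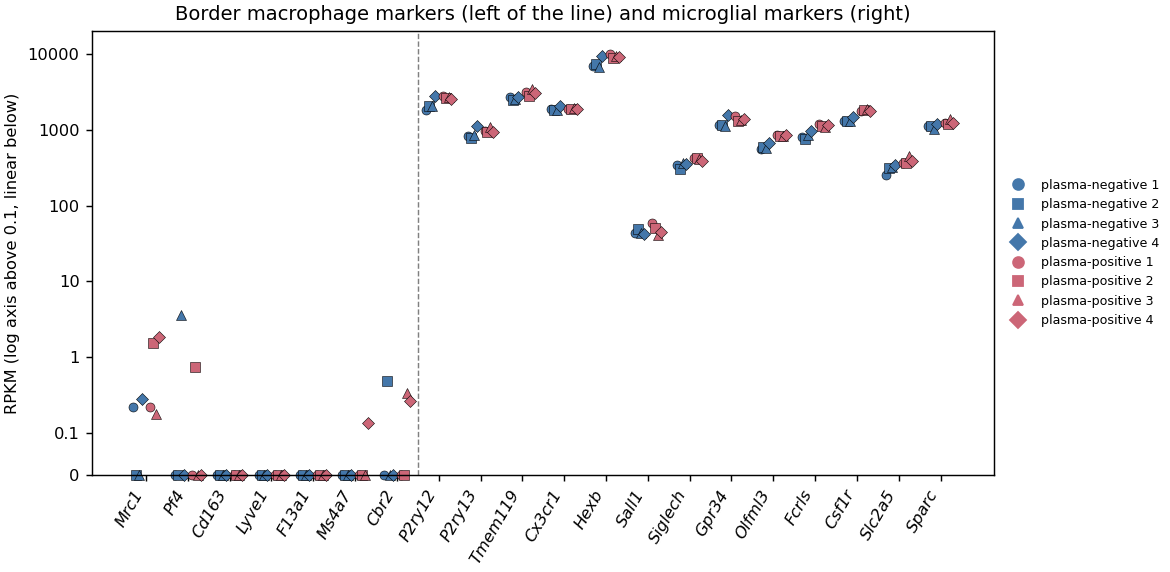
RPKM of the 7 border macrophage markers (left of the dashed line) and of the 13 microglial markers (right), 1 point per library, on an axis that is logarithmic above 0.1 and linear below. The highest marker value was 3.63 RPKM for Pf4 in plasma-negative replicate 3, whereas the lowest microglial marker, Sall1, was at least 41.4 RPKM in every library.

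Markers of other cell types in the same libraries were read beside Mrc1. Plasma-positive replicate 2, at 12.1 CPM of Mrc1, also held the most neuronal RNA, with a summed level of 278 CPM over 10 neuronal markers, Snap25 foremost. Plasma-positive replicate 4, at 15.3 CPM of Mrc1, had only 5.24 CPM of the same neuronal markers. The 10 oligodendrocyte markers, led by Cnp, summed to 535 CPM in plasma-positive replicate 2 and to 221 CPM in plasma-positive replicate 4. The 2 libraries with high Mrc1 thus differed widely in neuronal and oligodendrocyte RNA. By group, neuronal sums were 2.68 to 34.1 CPM in plasma-negative and 3.09 to 278 CPM in plasma-positive libraries. Oligodendrocyte sums were 163 to 230 CPM in plasma-negative and 221 to 535 CPM in plasma-positive libraries. Among the 12 monocyte and neutrophil markers, led by S100a8, the sum was 533 CPM in plasma-positive replicate 3 and at most 18.8 CPM in any other library, and that replicate had the lowest Mrc1 of its group (1.42 CPM).

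Cells of the vessel wall, the neighbours of border macrophages, were read from 3 lists. The 12 markers of blood endothelium, led by Pecam1, summed to 27.4 to 59.4 CPM in plasma-negative and 22.9 to 65.5 CPM in plasma-positive libraries, and Tek was at 0 throughout. Of the 12, 6 were at 0 in all plasma-negative libraries and 2 in all plasma-positive libraries. Plasma-positive replicate 2 held 91 counts of Cldn5, 65 of Ly6c1 and 46 of Itm2a, genes at 0 in all plasma-negative libraries and in plasma-positive replicate 4. Plasma-positive replicate 3 held 38, 3 and 24 counts of them. In plasma-positive replicate 2, Flt1 had 29 counts, against at most 1 in a plasma-negative library, and Cdh5 had 0. Pecam1 and Kdr stood at 24.8 and 1.83 CPM in that library, against plasma-negative means of 27.9 and 9.61 CPM. The list's sum in it, 40.0 CPM, lay within the plasma-negative range. For mural cells and fibroblasts, led by Dcn, the sums over 10 markers were 0 to 4.06 and 0 to 20.4 CPM, with 6.59 CPM in plasma-positive replicate 2, above every plasma-negative library, and 0 in plasma-positive replicate 4. Lymphatic endothelium, which shares Lyve1, had sums of 7.20 to 29.9 and 2.23 to 34.1 CPM that came mainly from Prox1, with Flt4 at 0 in all libraries. Lymphocyte markers, mainly Cd79b, summed to 30.0 to 84.8 and 54.6 to 94.2 CPM with Cd3e and Ms4a1 at 0. Astrocyte markers, mainly Slc1a3, summed to 215 to 327 and 214 to 316 CPM. Slc1a3 carried this sum (log2 fold change -0.36, edgeR, adjusted p = 0.326). Of the 10 astrocyte genes, 7 passed the filter on low counts. Slc1a2 was at 2.74 and Aldoc at 1.58 (log2 fold change, edgeR, adjusted p = 0.323 and 0.298). Agt, at 3.07 (adjusted p = 0.424), was counted in 1 plasma-negative and all 4 plasma-positive libraries and so passed the filter through the latter. Aqp4 and Gfap did not pass it, and in the fit without it they stood at -0.27 and -0.13 (log2 fold change, edgeR, adjusted p = 0.965 and 0.986). Aldh1l1, which did not pass it either, was at 0 in all plasma-negative libraries and had 56, 75, 0 and 4 counts in plasma-positive replicates 1 to 4. Slc1a2 had 1327 counts in plasma-positive replicate 2 and 20 in plasma-positive replicate 4.

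Of the 26 tested genes on the lists of other cell types, platelets included, edgeR called 0, against 1.41% of all tested genes, and 6 had an unadjusted p under 0.05, against 13.8%. DESeq2 called 2 (Gp9 and Cnp) of the 24 to which it gave an adjusted p, against 5.45% of all genes with one. Log2 fold changes were above 0 for 4 of 4 tested neuronal, 6 of 7 astrocyte and 6 of 6 oligodendrocyte genes. Their medians were 2.09, 2.29 and 1.26. Changes above 0 were also seen for 2 of 3 platelet and 2 of 3 blood endothelial genes. So did the 1 gene tested for each of monocytes and neutrophils, lymphatic endothelium and lymphocytes. Over all tested genes, 50.4% were above 0. The part of such RNA in the Mrc1 values was not tested.

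**Figure D3:**
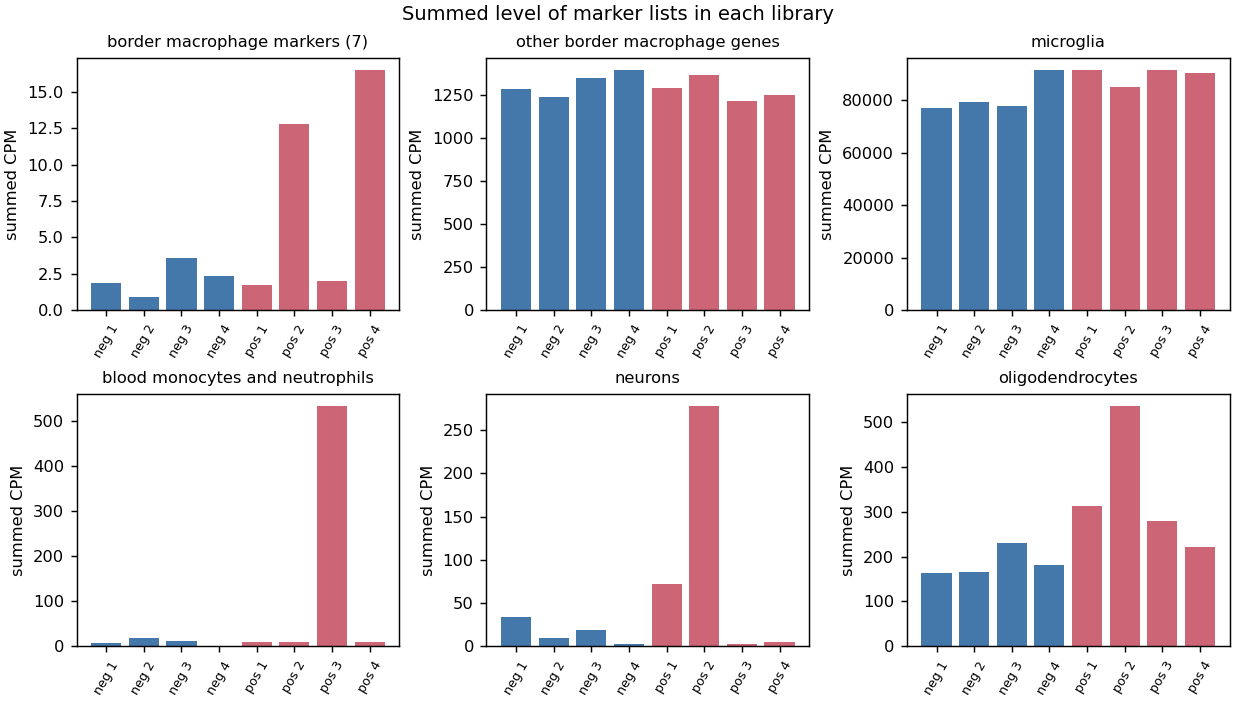
Summed CPM of 6 marker lists, 1 bar per library, plasma-negative replicates (neg) in blue and plasma-positive replicates (pos) in red, each panel with its own linear axis from 0. The border macrophage markers were high in plasma-positive replicates 2 and 4, the neuronal markers in plasma-positive replicate 2 and the monocyte and neutrophil markers in plasma-positive replicate 3.

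A further 24 genes linked to border macrophages were read in the same way. Of these, 8 had 0 counts in all libraries: the lectins Cd209b, Cd209d, Cd209f, Cd209g and Clec10a, the sialic acid receptor Siglec1, Ms4a4a and Cd38. Another 10 passed the filter and were tested, and 0 were called by edgeR at an adjusted p under 0.05, against 1.41% of all tested genes. DESeq2 called 3 of the 10, against 5.45% of all genes with an adjusted p, and in edgeR 3 had an unadjusted p under 0.05, against 13.8% of all tested genes. The median log2 fold change of the 10 was 0.24, against 0.01 over all tested genes. Their summed level, 1239 to 1397 CPM in plasma-negative and 1217 to 1368 CPM in plasma-positive libraries, was led by Maf, which microglia also express.

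The 3 genes with an unadjusted p under 0.05, named after their values were seen, were Gas6, Maf and Ms4a6c. Gas6, a ligand of the phagocytic TAM receptors, stood at 148, 168, 152 and 163 CPM in plasma-negative and 197, 246, 241 and 200 CPM in plasma-positive replicates. Maf, a transcription factor of tissue macrophages, stood at 657, 659, 657 and 635 CPM in plasma-negative and 560, 558, 461 and 455 CPM in plasma-positive replicates. The groups did not overlap for either gene, which held for 10.3% of all tested genes. Log2 fold changes were 0.49 for Gas6 (SE 0.12) and -0.36 for Maf (SE 0.09), with adjusted p of 0.0807 and 0.0848 in edgeR. Ms4a6c had 29.1 ± 8.42 and 54.2 ± 12.8 CPM (SD, n = 4), and its log2 fold change was 0.91 (SE 0.27, edgeR, adjusted p = 0.138). With DESeq2 the adjusted p were 0.0109, 0.00237 and 0.0463 for Gas6, Maf and Ms4a6c. With a correction for exon length they were 0.332, 0.444 and 0.31 in edgeR, and the log2 fold changes were 0.34, -0.21 and 0.74. Over all alternative fits, adjusted p ranged from 0.0109 to 0.407 for Gas6, from 0.00237 to 0.468 for Maf and from 0.0377 to 0.38 for Ms4a6c.

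**Figure D4:**
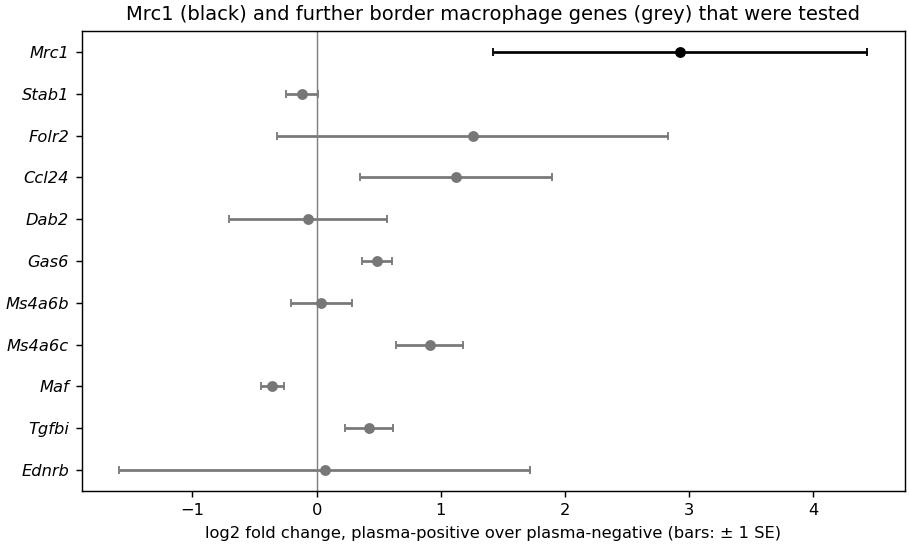
Log2 fold change (plasma-positive over plasma-negative, edgeR) of Mrc1 in black and of the 10 tested further border macrophage genes in grey, with bars of 1 SE. Mrc1 had the largest estimate of the 11 at 2.93 with an SE of 1.51, and none of the 11 was called.

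Receptors and lectins of this further list differed in the libraries that held them. Folr2, the folate receptor of border macrophages, had 68, 6, 0 and 0 counts in plasma-negative and 18, 51, 78 and 0 counts in plasma-positive replicates 1 to 4. It was thus at 0 in plasma-positive replicate 4, where Mrc1 was highest (edgeR, log2 fold change 1.26, SE 1.57, adjusted p = 0.8). Mgl2, a lectin, was counted in plasma-positive replicate 2 alone with 60 counts. Clec4n, the lectin Dectin-2, was counted in plasma-negative replicate 3 alone with 100 counts, the library that also held most of the Pf4 reads. Stab1, a scavenger receptor that microglia also express, stood at 228 ± 27.0 and 210 ± 23.8 CPM (SD, n = 4; edgeR, log2 fold change -0.12, SE 0.13, adjusted p = 0.757), and its sign turned under 4 alternative fits.

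Ms4a7 lies in a cluster of 19 Ms4a genes on chromosome 19, which were looked at after the values of Ms4a7 were seen. Of the 19, 13 had 0 counts in all libraries, among them Ms4a4a, the next Ms4a gene along the chromosome. Ms4a6d, Ms4a6b and Ms4a6c, which microglia express, had reads above 3 counts in all 8 libraries. Ms4a6b did not differ by more than the spread between replicates, at 154 ± 53.0 and 157 ± 36.4 CPM (SD, n = 4; edgeR, adjusted p = 0.968). Ms4a6d stood at 136 ± 20.1 and 194 ± 32.6 CPM (SD, n = 4; edgeR, log2 fold change 0.52, SE 0.16, adjusted p = 0.155). Of the 4 cluster genes that were tested, 0 were called by edgeR (1.41% of all tested genes), 2 had an unadjusted p under 0.05 (13.8%), and DESeq2 called 1, Ms4a6c (5.45%). Per length, Ms4a7 reached 0.136 RPKM in its only library, and Ms4a6d was between 47.2 and 102 RPKM.

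The tested genes whose log2 CPM followed the summed markers most closely over the 8 libraries were Igsf8 (Pearson r = 0.97), 4931403G20Rik (0.96), Polr2i (0.93), C9orf72 (0.92) and Mrps21 (0.92), out of 13276 compared. With Mrc1 alone, r was 0.59 for Igsf8 and 0.84 for 4931403G20Rik. These values share 8 libraries and the same scaling, and are the highest of many, so they are a description with no p. None of the 5 was called by edgeR, with adjusted p from 0.445 for Mrps21 to 0.707 for Igsf8.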

How the data were processed

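RNA of sorted microglia had been made into Smart-seq2 libraries, per the labels' protocols. The deposited table of raw read counts per gene and the deposited table of RPKM (reads per kilobase of exon, scaled to the library's read total) had 1 column per library and came from alignment files of top hits only, per the file headers. STAR, HTSeq, Trim Galore, bcl2fastq and mm10 are named in the submitters' processing notes, without versions. Strand and multi-mapping are not given in the sources used here. The standard deviations that each file gives in 8 further columns were not used. Groups and replicate numbers came from sample titles. Gene positions are those of the deposited tables. Exon lengths came from GENCODE M21 (GRCm38), which held 35546 of the 35583 identifiers, and promoter windows from RefSeq.

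The test on counts was edgeR 4.0.16 under R 4.3.3 (TMM factors, filterByExpr by group, quasi-likelihood test of group), and p-values were adjusted over all tested genes by the Benjamini-Hochberg method, with a threshold of 0.05. The script was tested on simulated data. CPM are counts per 1000000, with TMM-scaled library sizes, and a prior count of 2 was used for logs. Alternatives were other scalings and filters, DESeq2 1.42.0, limma 3.58.1 (voom with quality weights, and log2 of RPKM plus 1 or 0.1), the replicate block, a loess correction for exon length (span 0.3), a threshold of 0.1, and leaving out each library. The markers and lists were chosen with earlier results of these data known. Named were all 7 markers, up to 4 called genes of each list, the highest gene of each list of other cell types and the 5 genes most like the summed markers. Itgb3, Clec1b, Gp1bb, Gp1ba, Treml1, Cldn5, Ly6c1, Itm2a, Flt1, Kdr and Cdh5 were named after their values were seen. Slc1a2, Agt, Aldoc, Aqp4, Gfap and Aldh1l1 were also named after their values were seen. Others are said to be so, or stand for their list's genes at or near 0 or for its receptors.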

Additional observations from a re-analysis of the deposited data

Results flagged for a closer look

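In 11 of 52 groups of 4 libraries, 1 library lay far from the other 3, and 4 of the 11 were groups with reads in 1 library only. Chance gives about 1 in 20 for continuous values, which does not apply to such counts, so the 11 are not read against it. Of the border macrophage markers, Pf4 stood at 3.60 CPM in plasma-negative replicate 3 and at 0.659 CPM in plasma-positive replicate 2, with 0 in the other libraries of each group. Cbr2 stood at 0.879 CPM in plasma-negative replicate 2 and Ms4a7 at 0.780 CPM in plasma-positive replicate 4, again against 0 in the others of the group.

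The shallowest library, plasma-negative replicate 4, had Maf at 635 CPM (next lowest 657), Tgfbi at 105 CPM (next highest 67.4), summed microglial markers at 91340 CPM (next highest 79265) and a counted share of 74.6% (next highest 69.3%). Plasma-positive replicate 2 had the lowest summed microglial markers of its group, 84976 CPM against 90509 for the next. Summed monocyte and neutrophil markers reached 533 CPM in plasma-positive replicate 3, against 10.1 for the next library of its group. Summed mural cell and fibroblast markers reached 4.06 CPM in plasma-negative replicate 1, against 0.232.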

How the results depend on the processing

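No border macrophage marker was called in any of the 21 alternatives. Mrc1 kept its direction in all 20 alternative fits, with log2 fold changes from 0.69 to 4.02 and adjusted p from 0.246 to 0.661. Its lowest value came from limma on log2(RPKM + 1), a scale that shrinks low genes, and leaving out a library gave 2.33 to 3.63. The log2 ratio of summed markers went from 1.92 to -0.88 without Mrc1, to 2.66 without Pf4 and to 0.20 with RPKM, and lay between 1.33 and 2.27 without 1 library. No other marker passed the filter in the main test, and the alternatives for correlations between markers were not run, since no pair had enough counts. Of the further border macrophage genes, 1 was called with library totals only (Maf, where the median of all genes moved to -0.11), 3 with DESeq2, 2 with limma on log2(RPKM + 1), 2 with limma on log2(RPKM + 0.1) and 2 at a threshold of 0.1. Maf, at -0.36, moved to -0.21 with the exon length correction, to -0.22 with it and the replicate block, and to -0.24 in both limma fits on RPKM, and it was called in none of these 4.

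Stab1 turned to 0.13 with the exon length correction, to 0.13 with it and the replicate block, and to 0.01 in both limma fits on RPKM. Ms4a6b turned to -0.07 with library totals only, to -0.04 with the exon length correction and to -0.01 with it and the replicate block, and ranged from -0.14 to 0.26 when 1 library was left out. The cause was not tested.

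The number of genes called over the whole table, 187, was 74 with the replicate block, 67 with the exon length correction, 10 with both, 694 with DESeq2, 447 with limma on log2(RPKM + 1), 432 with log2(RPKM + 0.1), 407 at a threshold of 0.1, and 66 to 203 without 1 library. The share called higher, 59.9%, was 27.8% with library totals only, 86.8% and 85.6% in the limma fits on RPKM (median of all genes 0.11 and 0.16), 68.7% with the exon length correction, 70.3% with the replicate block and 47.8% with DESeq2. After subtraction of group means, same-numbered libraries correlated at 0.0109 to 0.0315 across genes. Their mean was 0.0167, against -0.00556 for differently numbered libraries, and 3 of 8 correlated best with their own number. With values this small and 4 libraries per group, the check cannot decide whether libraries were paired. The replicate block changed no call of a border macrophage gene.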
